A study of Mus musculus with 24 samples.

Results

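The circadian clock genes described here are 10 named genes of the mouse right ventricle, chosen by symbol and not by their values: Arntl (now Bmal1), Clock, Npas2, Per1, Per2, Per3, Nr1d1, Nr1d2, Dbp and Tef. They had 13 of the 55681 non-control probes on the array, and 9 of the 10 genes passed the filter on dim probes that left 12474 genes to test. RNA samples of right ventricles, 24 with 1 array each, fell into 4 groups: 5 samples of PSPI month 1, 5 of PSPI month 2, 4 of PSPI month 3 and 10 sham samples. PSPI is surgery that loads the right ventricle with both pressure and volume, and sham animals were operated on without it. The labels give the strain of every sample as M/FVB/10-12, without explaining its other fields, and the titles name no month for the shams; every PSPI month is compared with the same 10 sham arrays. An hour of tissue collection is not given in the sources used here. Since no label ties an array to an animal of its own, the replicate spread behind each p-value may be partly or wholly technical.

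The circadian clock is a transcriptional loop present in most cells, cardiomyocytes included. ARNTL pairs with CLOCK or its relative NPAS2 and switches on Per and Nr1d genes and Dbp through E-box sequences. PER proteins then hold this pair back, and the nuclear receptors NR1D1 and NR1D2 (REV-ERB alpha and beta) repress Arntl. Arntl and the genes it drives therefore peak at different, roughly opposite times of the day. DBP and TEF are PAR bZip factors that pass the rhythm to output genes through D-box sequences. In bulk tissue, fewer cells of a type and less RNA per cell cannot be told apart.

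Upstream sequences from RefSeq (GRCm38.p6) were matched for 9 of the 10 genes, with 14 windows of the 250 bases before a transcript start. Per2 was not matched. The windows of Per1, Per3, Nr1d1, Tef and Dbp are shown, because they carry the clock motifs found or, for Dbp, belong to the member with the most called contrasts. Capitals mark matches on either strand to the E-box CACGTG, to its variant CACGTT, which reads AACGTG on the opposite strand, and to the D-box TTANGTAA.
Per1 (chr11:69098699-69098948, plus strand): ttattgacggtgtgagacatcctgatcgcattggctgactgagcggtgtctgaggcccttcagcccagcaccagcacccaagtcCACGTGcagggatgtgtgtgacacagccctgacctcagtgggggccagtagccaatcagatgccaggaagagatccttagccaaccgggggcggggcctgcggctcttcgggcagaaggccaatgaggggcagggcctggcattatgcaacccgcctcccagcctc
Per3 (chr4:151044666-151044915, minus strand): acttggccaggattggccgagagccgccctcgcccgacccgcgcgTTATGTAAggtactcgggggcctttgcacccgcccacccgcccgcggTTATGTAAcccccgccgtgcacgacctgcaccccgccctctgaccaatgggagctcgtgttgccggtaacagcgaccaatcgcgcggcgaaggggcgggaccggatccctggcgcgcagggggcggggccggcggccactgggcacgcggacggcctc
Nr1d1 (chr11:98775378-98775627, minus strand): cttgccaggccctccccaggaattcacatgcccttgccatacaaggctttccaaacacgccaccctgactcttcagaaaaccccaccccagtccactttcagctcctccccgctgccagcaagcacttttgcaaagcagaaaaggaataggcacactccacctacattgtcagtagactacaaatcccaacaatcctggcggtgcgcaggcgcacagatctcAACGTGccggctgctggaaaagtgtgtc
Tef (chr15:81802423-81802672, plus strand): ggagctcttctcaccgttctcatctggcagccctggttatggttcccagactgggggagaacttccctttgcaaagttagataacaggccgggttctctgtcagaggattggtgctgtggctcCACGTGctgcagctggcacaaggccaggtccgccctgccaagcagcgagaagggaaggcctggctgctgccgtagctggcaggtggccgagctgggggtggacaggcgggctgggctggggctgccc
Dbp (chr7:45704997-45705246, plus strand): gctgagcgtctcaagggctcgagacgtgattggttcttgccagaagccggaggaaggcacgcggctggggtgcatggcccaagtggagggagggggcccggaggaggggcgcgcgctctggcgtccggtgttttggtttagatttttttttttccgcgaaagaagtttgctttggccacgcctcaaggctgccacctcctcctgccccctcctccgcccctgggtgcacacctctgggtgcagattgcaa
The E-box was found in 1 of the Per1 windows, 166 bases before the start, and in both Tef windows, 127 and 138 bases before their starts, against 6.02% of all 32851 windows of this length. The variant CACGTT was found 28 bases before the Nr1d1 start, against 3.85% of all windows. Per3 held 2 copies of the D-box, 205 and 158 bases before its start, against 2.06% of all windows. The ROR elements TAGGTCA and TGGGTCA, searched for on both strands, were found in 2.23% and 3.24% of all windows and in 0 of the 14 windows of the clock genes. The D-box, the E-boxes and the ROR elements did not overlap in these windows, and a match is a description of the letters only.

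Each array had between 36.1% and 56.1% of its probes well above background. Levels below are log2 processed signal relative to the array's 75th percentile, so that 0 is the signal of that percentile, and levels of different probes are not compared with each other. The 24 arrays lay on 3 slides: slide 1 held 1 month 1 sample and 7 shams, slide 2 held 3 month 1, 4 month 2 and 1 month 3 sample, and slide 3 held 1 month 1, 1 month 2, 3 month 3 and 3 sham samples. In 8 of 276 pairs, arrays of 1 group nearly coincided, 6 of them across slides, which leaves 17 units once they are averaged: 4 of month 1, 4 of month 2, 3 of month 3 and 6 of sham. Among these pairs are month 3 samples 2 and 3, and shams 3, 4 and 10. The 7 cardiomyocyte markers searched for were well above background on every array.

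Arntl and Clock, the activating pair, did not pass the test in any comparison with all 24 arrays. Arntl had levels of -3.05, -3.11, -3.07, -2.87 and -2.73 in month 1, and of -3.06, -2.96, -2.74, -2.34 and -3.11 in month 2. In month 3 its levels were -1.66, -3.11, -3.09 and -3.74, and in shams they ranged between -3.23 and -2.40 with a median of -2.82. Month 3 therefore held both the highest and the lowest array of the 24, with a group SD of 0.88 (n = 4) against 0.29 in shams (n = 10). Clock averaged -2.79 ± 0.27 in month 1 (SD, n = 5), -2.81 ± 0.14 in month 2 (SD, n = 5), -3.004 ± 0.46 in month 3 (SD, n = 4) and -2.72 ± 0.34 in shams (SD, n = 10). Its month 3 levels were -2.35, -3.40, -3.06 and -3.21, overlapping the sham range of -3.61 to -2.41. Without month 3 sample 1 both were lower in month 3 than in shams, Arntl by a log2 change of -0.50 (limma adjusted p = 0.0308) and Clock by one of -0.50 (limma adjusted p = 0.0253). Clock also passed in month 3 without sham 1 (-0.38, limma adjusted p = 0.0397). Npas2, the relative of Clock, was not well above background on any of the 24 arrays, so no level is given for it.

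**Figure D1:**
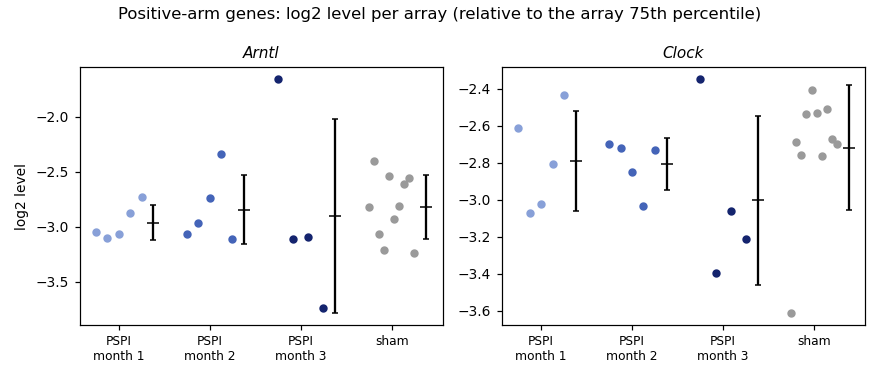
Log2 level of Arntl and Clock on each array (y axis, relative to the array's 75th percentile) by group (x axis); points are arrays in replicate order and the bar is the mean with its SD. Month 3 holds the highest Arntl array, at -1.66, and the lowest, at -3.74.

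Per1 and Dbp were the members that changed in month 3 against sham, in opposite directions. Per1 is a repressor of the loop that also answers directly to hormonal and stress signals. Its levels in month 3 were -0.30, 1.75, 1.85 and 2.14, against -0.30 to 0.94 in the 10 shams with a median of 0.31. Samples 2, 3 and 4 lay above every sham and sample 1 lay level with the lowest sham. Per1 averaged 1.36 ± 1.12 in month 3 (SD, n = 4) and 0.24 ± 0.38 in shams (SD, n = 10), a log2 difference of 1.11 ± 0.33 (SE) or 2.17-fold, with a limma adjusted p of 0.012. With near-coincident arrays averaged the difference was 0.97 and the limma adjusted p was 0.131. Leaving out month 3 sample 2, 3 or 4 ended the call (0.98, 0.95 and 0.86, limma adjusted p = 0.0535, 0.0583 and 0.0703), and without month 3 sample 1 it was 1.67, with a limma adjusted p of 5.11e-05. In month 1 Per1 had levels of 0.75, 0.35, -0.07, 0.45 and 0.87, and in month 2 of 0.25, 1.06, 0.15, -0.67 and 0.30. Both months overlapped the shams. A second Per1 probe was not well above background on any array.

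Dbp, the output factor, was lower in month 3. Its levels there were 1.47, 1.09, 1.34 and 2.13, against 1.74 to 2.59 in shams with a median of 2.25. Of the 4 month 3 arrays, 3 lay below every sham and sample 4 lay inside their range. The means were 1.51 ± 0.45 in month 3 (SD, n = 4) and 2.22 ± 0.32 in shams (SD, n = 10), a log2 difference of -0.71 ± 0.18 (SE) or 0.611-fold, with a limma adjusted p of 0.00387. A second Dbp probe gave -0.53 with a limma adjusted p of 0.0219, and both probes correlated at r = 0.90 over the 24 arrays. With slide as a fixed block the Dbp difference was -0.51 and its limma adjusted p was 0.0669, and on slide 3 alone it was -0.41 with a limma adjusted p of 0.364. Per1 kept its call under both (1.28, limma adjusted p = 0.0105, and 1.67, limma adjusted p = 0.0088). Month 3 sample 1, with the low Per1 level, was the only month 3 array on slide 2. Slide 3 alone therefore leaves it out, as the fit without month 3 sample 1 does. Of the 9 members tested in month 3, 1 rose and 1 fell, while 38.9% of all genes passed in this comparison, 17.2% higher and 21.7% lower. The median change of the members was -0.19 on the log2 scale, against -0.04 for all genes.

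Dbp stood higher in month 1 than in month 3 without overlap. Its month 1 levels were 2.68, 2.83, 2.85, 2.55 and 2.33, and 3 of these 5 arrays lay above every sham, but the change against sham did not pass the test (0.43 ± 0.17, SE, limma adjusted p = 0.282). Its month 2 levels were 2.71, 2.22, 2.23, 1.95 and 2.28, within or just above the sham range. Month 3 against month 1 gave a log2 difference of -1.14 ± 0.20 (SE), with a limma adjusted p of 0.000363, and the second probe gave -0.95 with a limma adjusted p of 0.0014. That difference held its call with slide as a fixed block (-1.01, limma adjusted p = 0.0026) and with near-coincident arrays averaged (-1.08, limma adjusted p = 0.0037), and lost it on slide 3 alone (-0.81, limma adjusted p = 0.332), where months 1 and 2 have 1 array each. Month 3 against month 2 gave -0.77 ± 0.20 (SE) for Dbp with a limma adjusted p of 0.0108, where the second probe gave -0.47 with a limma adjusted p of 0.106. Per1 differed by 1.14 ± 0.38 (SE) between months 3 and 2, with a limma adjusted p of 0.0382. Both calls against month 2 were lost with near-coincident arrays averaged (Dbp -0.62, limma adjusted p = 0.0853, and Per1 1.01, limma adjusted p = 0.225). Without month 3 sample 2 the Dbp difference from month 2 was -0.63 with a limma adjusted p of 0.0571, and the Per1 call was lost without month 2 sample 1, 3, 4 or 5 or month 3 sample 2, 3 or 4, with differences between 0.88 and 1.16 and a limma adjusted p of up to 0.148. Against month 1, Per1 did not pass (0.89 ± 0.38, SE, limma adjusted p = 0.0825), but did so without month 3 sample 1 (1.44, limma adjusted p = 0.000807).

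Nr1d1 came nearest to the threshold of all members in month 1. NR1D1 is the heme-binding repressor of Arntl. Its levels in month 1 were -1.59, -1.31, -1.32, -1.73 and -1.72, against -2.45 to -1.59 in shams with a median of -2.31. Samples 2 and 3 lay above every sham, and the other 3 month 1 arrays lay above 9 of the 10 shams. The difference was 0.66 ± 0.13 (SE) or 1.58-fold, with an unadjusted p of 4.62e-05 and a limma adjusted p of 0.0655. It passed without sham 8 (0.73, limma adjusted p = 0.00885) and without month 2 sample 2 (0.66, limma adjusted p = 0.0434). No gene of the 12474 passed the threshold in month 1 (0% of all genes). The count of members with an unadjusted limma p under 0.05 was 2 of 9 in that month, Nr1d1 and Dbp, against 12.1% of all genes.

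Nr1d1 levels were lower in the later months. They were -1.93, -2.46, -1.97, -1.84 and -1.81 in month 2, and -2.21, -2.08, -1.73 and -1.97 in month 3. All 5 month 2 arrays and all 4 month 3 arrays lay below all 5 month 1 arrays. Such a lack of overlap held for 3.59% of all genes in month 2 against month 1 and for 16.2% in month 3 against month 1, where Dbp showed it too. Month 3 against month 1 gave -0.46 ± 0.16 (SE) for Nr1d1 with a limma adjusted p of 0.0352. Month 2 against month 1 gave -0.47 ± 0.15 (SE) with a limma adjusted p of 0.252, and 0.016% of all genes passed there. Nr1d1 and Dbp were the 2 members called in month 3 against month 1, where 28.5% of all genes passed, 11.9% higher and 16.6% lower, and Per1 and Dbp were the 2 called in month 3 against month 2, where 18.7% passed, 8.98% higher and 9.73% lower. The Nr1d1 call between months 3 and 1 was lost without month 1 sample 2 or 3 or month 3 sample 1, 2 or 4, with a limma adjusted p of up to 0.0877, and with near-coincident arrays averaged (-0.52, limma adjusted p = 0.0781).

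Over all months together, Nr1d1 was higher and Tef lower than in shams. The log2 change of Nr1d1 was 0.35 ± 0.10 (SE), with a limma adjusted p of 0.0147, its PSPI arrays running between -2.46 and -1.31 with a median of -1.83 and its sham arrays between -2.45 and -1.59 with a median of -2.31. Tef, a PAR bZip factor like Dbp, changed by -0.31 ± 0.10 (SE), with a limma adjusted p of 0.0335. Its PSPI arrays ran between 1.54 and 2.44 with a median of 2.20, and its sham arrays between 2.04 and 2.79 with a median of 2.45, so the groups overlapped. These were 2 of 9 members, against 24.4% of all genes, 10.8% higher and 13.6% lower. Both calls were lost with near-coincident arrays averaged (Nr1d1 0.27, limma adjusted p = 0.212, and Tef -0.26, limma adjusted p = 0.23) and with slide as a fixed block (Nr1d1 0.42, limma adjusted p = 0.0619, and Tef -0.28, limma adjusted p = 0.181). The Tef call was also lost without sham 3, 4, 5, 6 or 10 or month 2 sample 4, with a limma adjusted p of up to 0.066.

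No member passed in month 2, where 14.5% of all genes did. At an unadjusted limma p under 0.05 it was 2 of 9 members, Tef and Nr1d2, against 30.8% of all genes. Tef came nearest, with levels of 2.07, 2.36, 1.99, 1.73 and 2.18 and a change of -0.39 ± 0.14 (SE), with a limma adjusted p of 0.0546, and it passed without sham 7 or 8, month 2 sample 2 or month 3 sample 1, with a limma adjusted p between 0.0204 and 0.0442. Nr1d2, the second REV-ERB, had levels of -1.16, -1.06, -1.46, -2.01 and -1.10 in month 2, against -1.38 to -0.53 in shams. Its change there was -0.37 ± 0.16 (SE), with a limma adjusted p of 0.111. In month 3 Nr1d2 had levels of -1.75, -1.22, -1.41 and -0.95 and a change of -0.34 ± 0.17 (SE), with a limma adjusted p of 0.113. Its second probe gave -0.47 in month 3 with a limma adjusted p of 0.0397, so the probes of Nr1d2 fell on different sides of the threshold while both were lower. Tef in month 3 had levels of 1.54, 2.27, 2.44 and 2.42 and a change of -0.29 ± 0.15 (SE), with a limma adjusted p of 0.118.

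Per2 and Per3, repressors of the loop like Per1, were dim and did not pass in any comparison. Per2 was well above background on 22 of 24 arrays and Per3 on 19, and in month 3 Per3 was so on 1 of 4. Per2 levels in month 3 were -6.03, -3.85, -4.31 and -5.14, against -5.40 to -3.92 in shams with a median of -4.71. In month 2 they were -4.40, -4.12, -4.90, -5.67 and -4.11, and in month 1 -4.48, -5.39, -5.38, -4.59 and -4.46. The lowest values, in month 3 sample 1 and month 2 sample 4, were the arrays on which Per2 was not well above background. Per3 had -6.40, -5.16, -5.25 and -4.50 in month 3, and -5.80 to -4.66 in shams with a median of -5.16. In month 2 it had -5.44, -5.06, -5.48, -7.41 and -5.21, and in month 1 -5.23, -4.86, -4.78, -4.70 and -5.08.

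**Figure D2:**
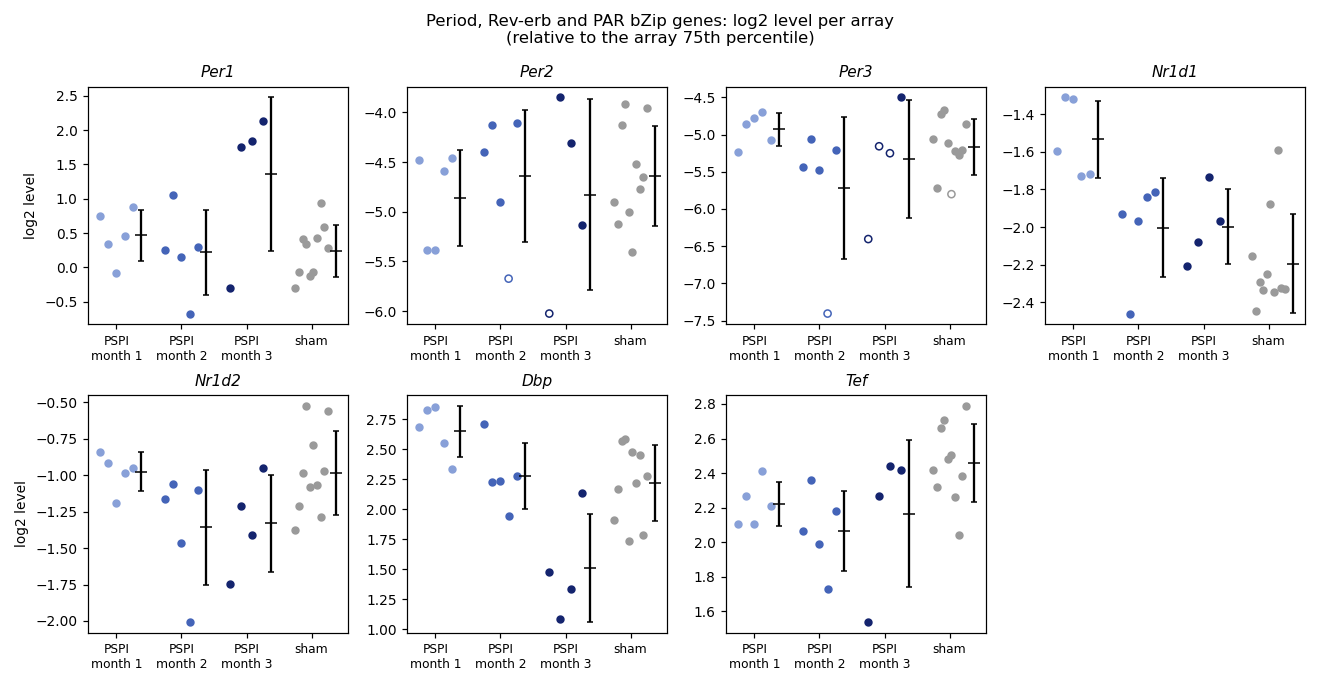
Log2 level of 7 clock genes on each array (y axis, relative to the array's 75th percentile) by group (x axis); filled points are arrays on which the probe was well above background, open points are the others, and bars are the mean with its SD. Month 3 samples 2, 3 and 4 lie between 1.75 and 2.14 for Per1, above all shams, and 3 of 4 month 3 arrays lie below all shams for Dbp.

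**Figure D3:**
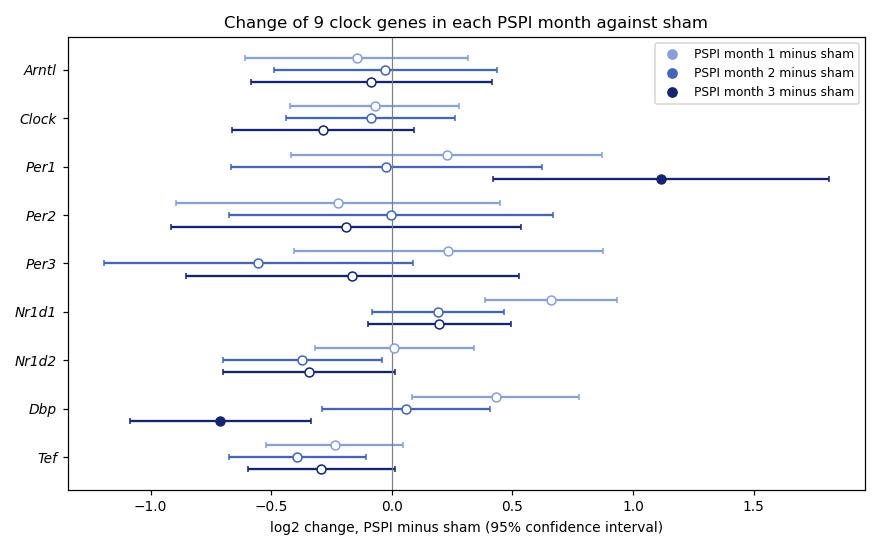
Log2 change of 9 clock genes (y axis) in each PSPI month against sham (x axis, with 95% confidence intervals from the limma SE and 20 residual degrees of freedom); filled points passed an adjusted p of 0.05. Per1, at 1.11, and Dbp, at -0.71, are the filled points, both in month 3.

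The 9 genes differed in how much they varied between arrays of 1 group. The within-group SD was 0.62 for Per2, 0.60 for Per1 and 0.59 for Per3, at percentiles 94.0, 93.2 and 93.0 of all genes tested, whose median SD was 0.24. Arntl followed with 0.42, at percentile 82.8. Nr1d1 and Tef had within-group SDs of 0.24 and 0.25, at percentiles 51.1 and 53.8. Clock, Nr1d2 and Dbp lay between these, with 0.32, 0.30 and 0.32. The SDs of Per2 and Per3 include arrays on which their probes were not well above background. That of Per1 includes its low level in month 3 sample 1.

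Levels of several members moved together across the arrays. Among all 45 pairs of the 10 genes, 21 pair a gene of the activating arm (Arntl, Clock or Npas2) with one of the other 7. They are called opposite-phase pairs here by arm, and the peak time of each gene was not used. Of these 21, 18 had a negative Pearson r over the 24 arrays and 5 were past an adjusted p of 0.05 by a permutation test of 100000 resamples, two-sided, adjusted over the 45 pairs. All 5 were pairs of Arntl. Without Npas2, whose values are below background, 12 of 14 pairs were negative.

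Arntl against Per3 gave r = -0.70 and rho = -0.61 (n = 24, permutation adjusted p = 0.00922 for r and 0.0606 for rho). Arntl against Nr1d2 gave r = -0.62 and rho = -0.47 (permutation adjusted p = 0.016 and 0.124), and Arntl against Tef gave r = -0.61 and rho = -0.43 (permutation adjusted p = 0.016 and 0.163). Arntl against Per1 gave r = -0.57 and rho = -0.43 (permutation adjusted p = 0.0193 and 0.163), and Arntl against Per2 gave r = -0.54 and rho = -0.53 (permutation adjusted p = 0.0248 and 0.0606). No pair passed by rho. Arntl against Dbp gave r = -0.34 and rho = -0.33 (permutation adjusted p = 0.242 and 0.265) and Arntl against Nr1d1 gave r = -0.19 and rho = -0.12 (permutation adjusted p = 0.517 and 0.75). For the 7 pairs of Clock, r ran between -0.24 and 0.24 and none passed.

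These correlations rest in part on a few arrays. Month 3 sample 1 and month 2 sample 4, with the highest Arntl levels of -1.66 and -2.34, had the lowest levels of Per2, Per3, Nr1d2 and Tef among all 24 arrays. On both of these arrays the probes of Per2 and Per3 were not well above background. Without the 2 arrays farthest from the median of Arntl, month 3 samples 1 and 4, r was -0.61 for Per3, -0.58 for Per2, -0.56 for Nr1d2, -0.43 for Tef and -0.39 for Per1, and 1 opposite-phase pair was past the threshold. Month 2 sample 4 stayed in these values, and r without it and month 3 sample 1 together is not given. Within the 10 shams alone, r was -0.76 for Tef, -0.75 for Nr1d2, -0.71 for Per2, -0.62 for Per3 and -0.07 for Per1. The near-coincident shams 3, 4 and 10 had the lowest Arntl levels of the shams, -3.06, -3.21 and -3.23. They also had the highest Tef and Per2 levels of the shams. They count as 1 of 6 sham units, so these r values do not rest on 10 separate profiles. Values of r in shams with them averaged are not given. On slide 1, slide 2 and slide 3, with 8 arrays each, Arntl against Per3 gave -0.66, -0.74 and -0.72, Arntl against Nr1d2 -0.77, -0.79 and -0.12, and Arntl against Tef -0.55, -0.85 and -0.17. With near-coincident arrays averaged to 17 units, r was -0.73 for Per3, -0.68 for Nr1d2 and for Tef, -0.65 for Per1 and -0.49 for Per2.

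**Figure D4:**
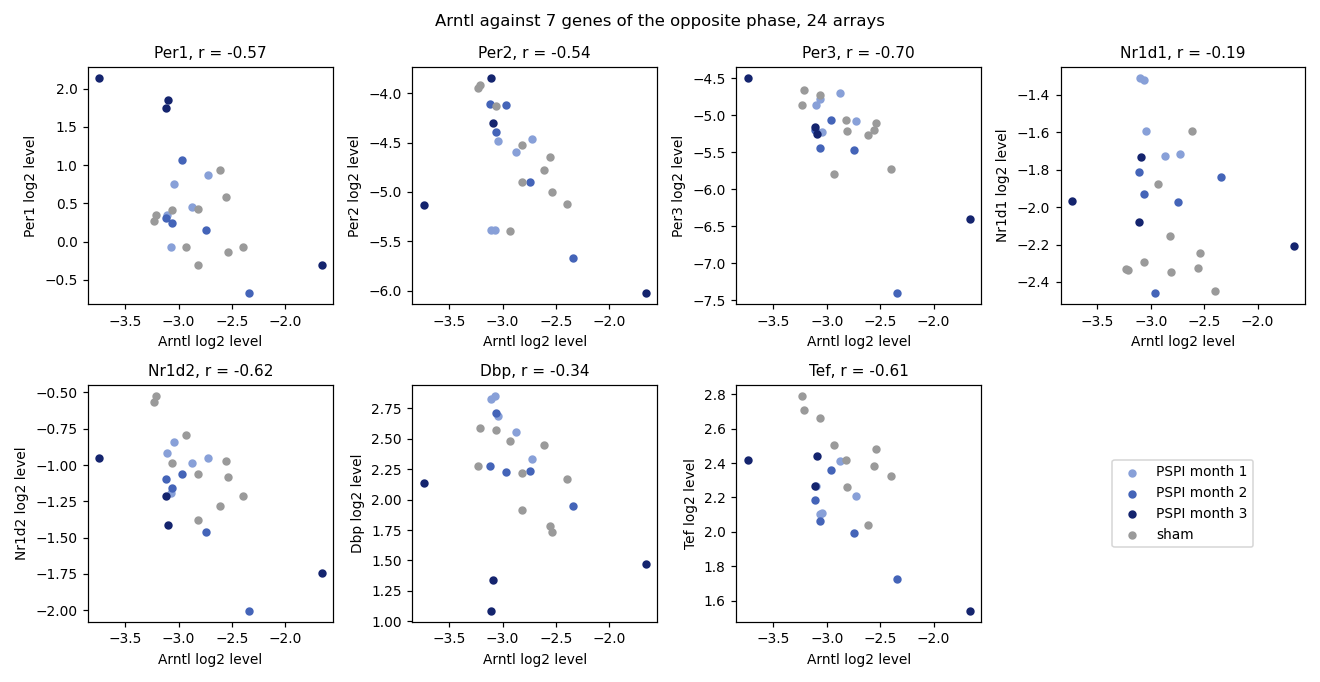
Arntl log2 level (x axis) against the log2 level of each of 7 genes of the opposite phase (y axes), 1 point per array, coloured by group. The 2 arrays at the right, at -1.66 and -2.34, lie lowest for Per2, Per3, Nr1d2 and Tef.

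Members of the same arm moved together more than apart. Of the 22 such pairs without Npas2, 18 were positive and 6 were past the threshold by the same permutation test. These 6 became 3 without month 2 sample 4, without month 3 sample 1 or with near-coincident arrays averaged, 2 without the 2 farthest arrays, with normexp background correction or with the deposited table, and 1 in shams alone. On slides 1, 2 and 3, 16, 20 and 12 of the 22 were positive, and 0, 2 and 0 were past the threshold. Slide 2 held both month 3 sample 1 and month 2 sample 4. Nr1d2 with Tef gave r = 0.78 and rho = 0.58 (n = 24, permutation adjusted p = 0.00135 and 0.0606), Per3 with Nr1d2 gave r = 0.74 and rho = 0.55 (permutation adjusted p = 0.00427 and 0.0606), and Per3 with Tef gave r = 0.69 and rho = 0.57 (permutation adjusted p = 0.006 and 0.0606). Per2 with Tef, Per3 and Nr1d2 gave r of 0.58, 0.55 and 0.53, with rho of 0.34, 0.37 and 0.28. Per1 with Dbp gave r = -0.26 and rho = -0.03 (permutation adjusted p = 0.366 and 0.913), and Arntl with Clock gave r = 0.41 and rho = 0.43 (permutation adjusted p = 0.14 and 0.163). Without the 2 arrays farthest from the median of the first gene, Nr1d2 with Tef gave r = 0.60, Per3 with Nr1d2 0.37 and Per3 with Tef 0.39. No share over pairs of all genes is given beside the counts of same-arm and opposite-phase pairs.

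**Figure D5:**
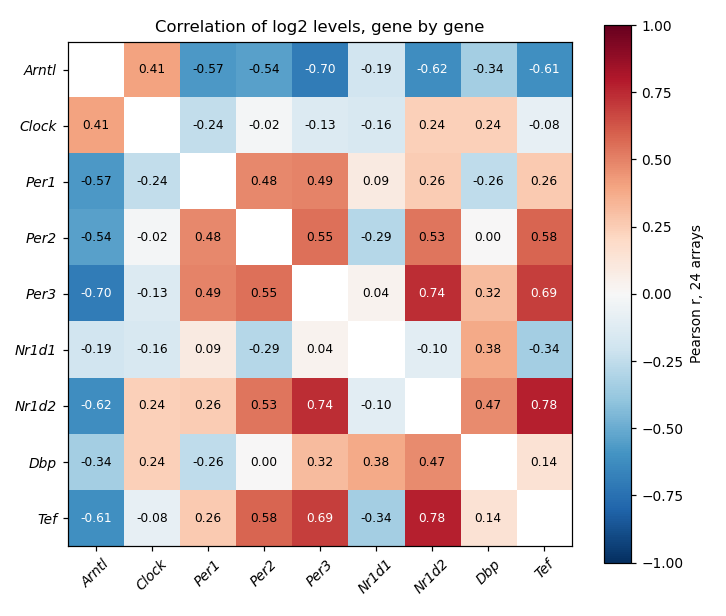
Pearson r between the log2 levels of each pair of 9 clock genes over 24 arrays (colour and number, both axes list the genes). Arntl is negative with all 7 genes of the opposite phase, between -0.70 and -0.19, and Nr1d2 with Tef has the highest value, 0.78.

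Among the 11479 genes with a plain symbol and a value on every array, Per3 ranked 4 from the lowest r with Arntl, Nr1d2 13, Tef 14, Per1 25 and Per2 46, while Dbp ranked 731 and Nr1d1 2354. The 5 genes with the lowest r with Arntl were Itpr3 (-0.81), Bmp2 (-0.77), Tspan4 (-0.72), Per3 (-0.70) and Nat14 (-0.70). Among the 5 with the highest were Pafah1b1 (0.76), Tpd52l1 (0.68), Slc41a3 (0.65) and Nutf2 (0.64). For Dbp the highest were Sgce (0.80), Exosc8 (0.79), Ddr2 (0.78), Igsf8 (0.77) and Nme7 (0.77), and the lowest Ifi35 (-0.77), Tns1 (-0.76), Jmy (-0.75), Fgfrl1 (-0.74) and Ppp1r11 (-0.73). These values describe 24 arrays that share slides and groups.

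Of 17 further clock genes on the array, 13 could be tested. In month 3, 2 passed higher and 1 lower, where 17.2% of all genes passed higher and 21.7% lower, and the median log2 change was -0.14, against -0.04 for all genes. Ciart, a repressor of the ARNTL and CLOCK pair, had levels of -5.86, -4.43, -4.42 and -5.02 in month 3, all well above background, against -8.28 to -4.48 in shams, 3 of 10 of which were well above background. In month 1 it was so on 1 of 5 arrays and in month 2 on 2 of 5. Ciart, counted among the 2 higher genes, passed the filter on dim probes through month 3 alone, so that no fold change or test is given for it. Rorb, of the ROR receptors that activate Arntl, changed by 0.58 ± 0.22 (SE) in month 3, with a limma adjusted p of 0.0363 that was 0.186 without month 3 sample 4 and also above the threshold without sham 3, 4 or 5 or month 3 sample 1 or 3. Csnk1d, the kinase that marks PER proteins for degradation, changed by -0.26 ± 0.09 (SE) with a limma adjusted p of 0.0202, by -0.04 with the mean of its probes, and by -0.20 without month 3 sample 2, with a limma adjusted p of 0.117, and it was also lost without month 3 sample 3. Over all months Csnk1d changed by -0.17 ± 0.06 (SE), with a limma adjusted p of 0.044, and the call was lost with near-coincident arrays averaged (-0.18, limma adjusted p = 0.123) and in 15 of the 24 fits that left out 1 array. No gene of the list passed in month 1, in month 2, in month 2 against month 1 or in month 3 against month 2.

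All 15 clock output and rhythmic genes could be tested. In month 3, 2 rose and 1 fell, where 38.9% of all genes passed, and the median log2 change was 0.09, against -0.04 for all genes. Nampt, the rate-limiting enzyme of NAD salvage, had levels of -0.09, -0.17, -0.01 and -0.73 in month 3, against 0.27 to 0.82 in shams, a change of -0.86 ± 0.16 (SE) with a limma adjusted p of 0.000233. All 4 month 3 arrays lay below every sham, and 12.4% of all genes had no overlap between these groups. Rbm3, a cold-inducible RNA-binding protein, had 0.95, 1.44, 1.48 and 0.84 in month 3, against 0.01 to 0.82 in shams, a change of 0.78 ± 0.16 (SE) with a limma adjusted p of 0.000578. Por, the reductase that serves cytochrome P450 enzymes, changed by 0.28 ± 0.08 (SE) in month 3, with a limma adjusted p of 0.0096 that was 0.138 with slide as a fixed block. Kcnip2, the subunit of the transient outward potassium current, was higher in month 2 than in shams by 0.96 ± 0.25 (SE, limma adjusted p = 0.0145) and lower in month 3 than in month 2 by a log2 difference of -1.41 ± 0.30 (SE, limma adjusted p = 0.00227). Usp2, a deubiquitinase, was lower in month 2 by a log2 change of -0.54 ± 0.17 (SE, limma adjusted p = 0.0318). The Kcnip2 and Usp2 calls in month 2 were lost with slide as a fixed block (0.79, limma adjusted p = 0.158, and -0.67, limma adjusted p = 0.0816) and with near-coincident arrays averaged, and Usp2 also without sham 2 or 5 or month 2 sample 1, 3, 4 or 5.

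Other gene lists were counted in the same way in month 3, where 17.2% of all genes were higher and 21.7% lower. Of 8 glucocorticoid-responsive genes, 4 were higher and 0 lower, with a median log2 change of 0.67 against -0.04 for all genes. Of 9 immediate early genes tested, 0 were higher and 1 was lower. The summed level of 2 adipocyte markers ran between -5.25 and -2.88 in month 3 and between -4.54 and 0.84 in shams, and both were lower in month 3. The summed level of 4 atrial cardiomyocyte markers ran between 4.93 and 5.73 in month 3 and between 0.22 and 7.61 in shams. Nppa had the higher mean in month 3 (5.31, against 3.75 in shams), while the other 3 had lower ones, Myl4 with -1.56 against 0.87, Myl7 with -6.86 against -3.24 and Sln with -4.59 against -1.17. Their part in the changes of Per1 and Dbp was not tested.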

How the data were processed

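The 24 RNA samples of mouse right ventricles were hybridised to 1-colour Agilent arrays, labelled with Cy3 per the labels' protocols. The submitters' processing notes name Agilent Feature Extraction 10.7.3.1 for the scans, and coordinates of the probes are on mm9, per the file headers. Each deposited scanner file gives a processed intensity for every spot, linear and with its background already subtracted, per the file headers. The deposited table of the whole series holds intensity values equal to the net signal of those files for 62976 of 62976 spots on each array.

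Control spots and outlier spots were left out, spots of a probe were averaged, and from the log2 processed signal the 75th percentile of that array was subtracted, computed over 16946 probes detected on all 24 arrays (well above background). Probes detected so in all arrays of 1 or more groups were kept (21040 of 55681), and a gene was represented by its brightest kept probe. Genes were tested with limma 3.58.1 (R 4.3.3) in 1 model of 4 group means with 20 residual degrees of freedom and Benjamini-Hochberg adjustment over 12474 genes, threshold 0.05. All tests are two-sided, and the number of arrays limits the precision. The fit and the correlations were tested on simulated data. The alternatives tried were other scalings, background corrections, filters and probe rules, slide as a block, the replicate number as a block, averaged arrays and each array left out.

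The members and gene lists were chosen with earlier results of these data known, and the motif list was revised after a first search, in which other forms of the ROR and CRE elements had no match in the members. The 10 clock genes are always named, further clock and output genes where they pass in any comparison, and, for Arntl and for Dbp, the 5 genes with the highest and the 5 with the lowest r; a few genes that this rule names are not reported here. Near-coincident arrays were those with a median absolute log2 difference of at most 0.3 over the 500 genes with the highest median absolute deviation. This measure was chosen after seeing the data, among many tried, because it recovered pairs already described for these arrays, so it gives no independent evidence of them. The root mean square difference over all genes with the same limit gave 2 pairs in place of 8.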

Additional observations from a re-analysis of the deposited data

Results flagged for a closer look

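In 4 of the 36 sets of a gene and a group, 1 array lay far from the others by Dixon's test, which flags about 1 group in 20 by chance (at 5% in each). Clock was at -3.61 in sham 1, where the other shams ran between -2.77 and -2.41. Per1 was at -0.30 in month 3 sample 1, where the others ran between 1.75 and 2.14. Per3 was at -7.41 in month 2 sample 4, where the others ran between -5.48 and -5.06, and its probe was not well above background on that array. Nr1d1 was at -2.46 in month 2 sample 2, where the others ran between -1.97 and -1.81.

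The change against sham differed between months, by a limma contrast, in 4 cases. Between months 3 and 2 the difference was 1.14 for Per1 (limma adjusted p = 0.0382) and -0.77 for Dbp (limma adjusted p = 0.0108). Between months 3 and 1 it was -0.46 for Nr1d1 (limma adjusted p = 0.0352) and -1.14 for Dbp (limma adjusted p = 0.000363). The shams are the same in both months and cancel in these differences.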

How the results depend on the processing

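Counts of called members moved as follows, and 2 further calls of Nr1d2 are given below. Over all months the 2 calls became 1 without the filter on dim probes, and 0 with slide as a fixed block, on slide 3 alone (4 residual degrees of freedom) and with near-coincident arrays averaged. In month 1 the count of 0 became 1 with the replicate block (Nr1d1 0.76, limma adjusted p = 0.0272). In month 2 the count of 0 became 1, Tef, with the percentile over all probes, normexp, the deposited table, the stricter filter and the replicate block, with changes between -0.45 and -0.39. In month 3 the 2 calls became 4 with the percentile over all probes, where Nr1d2 (-0.51) and Tef (-0.45) also passed, and 1 with slide as a fixed block (Per1) and with averaged arrays (Dbp). Slide 3 alone leaves out month 3 sample 1, the only month 3 array on slide 2. On slide 3 alone the 2 calls were Per1 and Clock. For month 3 against month 2 the 2 calls became 1 with normexp, the deposited table, no filter and the replicate block, and 0 with slide as a fixed block, on slide 3 alone and with averaged arrays. For month 3 against month 1 the 2 calls became 1 with normexp, the deposited table, no filter, slide as a fixed block and averaged arrays, and 0 on slide 3 alone. The cause was not tested. Whether the numbers in the titles pair samples was not settled. Same-numbered arrays had a median correlation of 0.0044 in their deviations (27 pairs, -0.45 to 0.52, 9 of them over 0.1). The median of 178 other pairs was -0.012. The replicate block moved the calls over all genes in month 1 from 0 to 81 and in month 2 from 1809 to 3017.

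With 1 array left out, the count ran between 1 and 3 over all months, 0 and 1 in month 1, 0 and 1 in month 2, 1 and 4 in month 3, 0 and 2 in month 3 against month 2 and 1 and 2 in month 3 against month 1, and the negative opposite-phase correlations past the threshold numbered between 2 and 6. The 6 came without sham 9, where 5 were pairs without Npas2. The count of 5 became 2 with the percentile over all probes, with normexp and with the deposited table, and 1 without the 2 farthest arrays. It was 1 in shams alone, 0 on slide 1, 1 on slide 2 and 0 on slide 3. The 1 in shams was Npas2 against Per1 (r = -0.86), and 0 pairs without Npas2 passed there. The 1 on slide 2 was Arntl against Dbp (r = -0.93), which is not among the 5 pairs. With normexp and with the deposited table, 2 opposite-phase pairs were positive past the threshold. Of the 14 pairs without Npas2, 13 were negative in both settings, so these 2 cannot both be pairs without Npas2, whose values are below background. Csnk1d over all months reversed to 0.036 with the mean of its probes. Leaving out the month 3 arrays, chosen after seeing the data, turned the contrast over all months into months 1 and 2 together against sham. The 2 calls were kept in that contrast. Adjusting over pairs without Npas2, also chosen so, kept the 5 negative correlations. Arntl in month 3, at -0.08, reversed to 0.13 with normexp, to 0.15 with the deposited table and to 0.20 without month 3 sample 4, and was -0.50 without month 3 sample 1. Of 533 further values of uncalled members under other settings, 78 changed sign and 2 passed. Both were of Nr1d2 with the percentile over all probes. They were over all months (-0.31, limma adjusted p = 0.0406) and in month 3 against month 1 (-0.49, limma adjusted p = 0.0361). Per1 passed over all months without month 3 sample 1 (0.62, limma adjusted p = 0.011). The percentile over all probes moved the median gene of month 3 to -0.20, against -0.04, and the share of higher calls there to 22.5%; with the deposited table it was 65.7%. Per2 and Per3 are limited by signal near background.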
